A study of Mus musculus with 6 samples.

Results

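Some probe sets of an expression array cannot tell near-identical gene copies apart, and GEO's annotation of the array pairs such a probe set with several gene symbols. The probe sets described here name 2 or more genes and had a mean log2 level in miR-188 knockout cells (KO188) that lay at least 1 above or at least 1 below the wild-type mean, a difference of 2-fold or more. There were 37 of them among 1621 probe sets naming several genes and 35556 probe sets in all. The 37 name 64 gene symbols, of which 50 have no probe set of their own in this annotation, so by this annotation those genes are read only through shared probe sets (a further 12146 probe sets are not listed in it). Because the 37 were chosen on the difference between the genotypes, their levels and differences are given as a description, with no test.

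The arrays read RNA from bone marrow stromal cells, which grow attached to plastic and can form bone or fat. There are 3 arrays of wild-type cells (WT) and 3 of cells from miR-188 knockout mice. All mice were on the C57BL/6 background and 6 months old. Both groups received the same osteogenic medium, made with 10% fetal calf serum, dexamethasone at 100 nM, beta-glycerophosphate at 10 mM and ascorbic acid phosphate at 0.05 mM. The labels number biological replicates but tie none of them to a particular mouse or culture, so the spread between arrays may be technical. No label names a batch that holds both groups, so genotype and a culture or array batch cannot be told apart in any value below. The labels do not say which sequence was deleted. In RNA from a whole culture, fewer cells of a kind and less RNA per cell also cannot be told apart.

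The median log2 level per array was 7.43 to 7.50, and arrays correlated across probe sets at 0.9964 to 0.9976 within a group and at 0.9908 to 0.9915 between groups. Stromal markers such as Col1a1 (WT level 12.90) and Pdgfrb (12.34) stood far above 6.72, the level that 95% of 1193 probe sets for smell and pheromone receptors stayed under. That level serves below as a receptor guide to what unexpressed genes read. Of the 17 stromal and osteoblast-lineage markers 14 were above it on the mean of the 6 arrays. The receptor gene Lepr and the bone matrix gene Ibsp were not (both 5.18 in WT). Nor was the osteoblast-lineage marker Sp7 (WT 6.41, KO188 6.77), which is among the risen markers counted next. In limma's test 11 of the 17 rose and 1 fell, and their mean level was 9.930 to 9.952 over the WT arrays and 10.214 to 10.227 over the KO188 arrays; the part of this in the results below was not tested. Of the 23 leukocyte markers measured, 16 were below that guide, such as the leukocyte antigen gene Ptprc (WT 6.25, KO188 6.23). The other 7 were above it, with Cd68 (WT 8.39, KO188 8.54) and Cd14 (WT 7.85, KO188 7.58) the highest. None of these 23 passed limma's test (0 calls, 3 at an unadjusted p under 0.05). The mean level of the leukocyte list ran from 6.294 to 6.296 over the WT arrays and from 6.199 to 6.329 over the KO188 arrays, while Kdr was the only 1 of 6 endothelial markers to rise (0.24).

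Interferons are secreted signals of infection that switch on a large set of genes through DNA elements in their promoters, among them the interferon-stimulated response element (ISRE) and the gamma-activated site (GAS). Many of the proteins made are antiviral enzymes, GTPases that attack the compartments in which microbes live, and parts of antigen presentation, and their genes often lie in tandem clusters of close copies. Such clusters are exactly where array probes match several genes at once.

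Of the 1621 probe sets naming several genes, 34 (2.1%) were at least 1 higher in KO188 and 3 (0.185%) were at least 1 lower. Over all 35556 probe sets the shares were 0.951% and 0.101%, and over the 21789 probe sets naming 1 gene they were 1.12% and 0.119%. By their names, the 34 higher ones read genes of 11 groups: immunity-related GTPases (6 probe sets), guanylate-binding proteins (2), very large GTPases (3), the Sp100 group (8), Csprs (4), class I major histocompatibility (MHC) heavy chains (4), a proteasome activator (1), Oas1 (1), Isg15 (1), Trim5 and Trim12 (2) and Apol9 (2). Genes of these groups are known, from general knowledge, to respond to interferon. The 3 lower ones read Ass1 (2) and the proliferins of the Prl2c group (1). Differences of the higher probe sets ran from 1.003 to 3.28 in log2 units (median 2.28, or 4.85-fold), and 10 of the 34 were 3 or more.

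**Figure D1:**
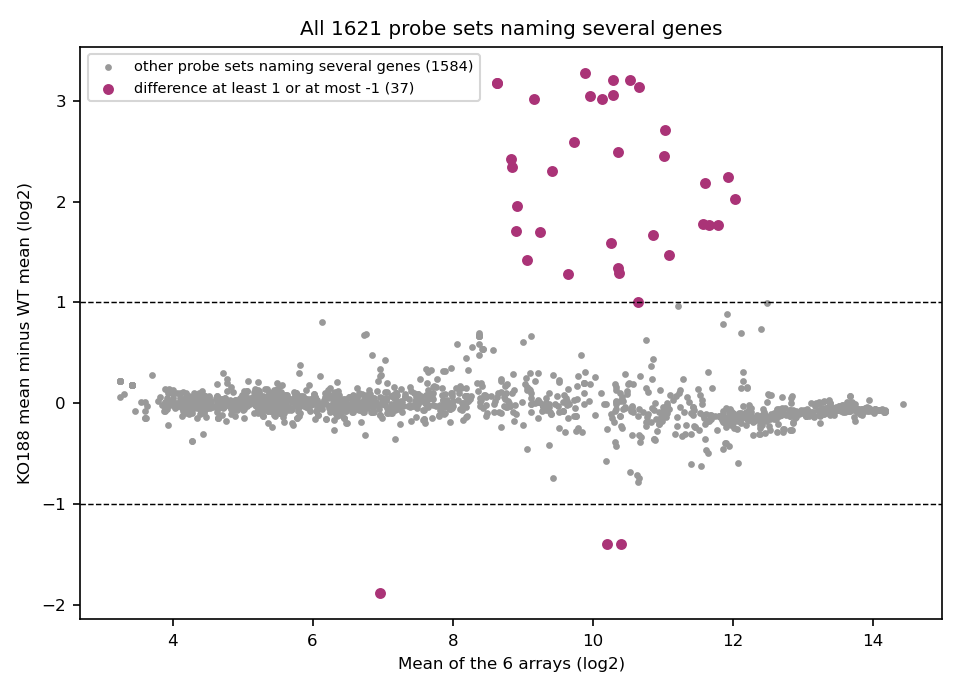
KO188 mean minus WT mean (log2) against the mean of the 6 arrays (log2) for the 1621 probe sets that name several genes, with dashed lines at 1 and -1. The 37 coloured points past the lines split into 34 above and 3 below.

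In all 37 probe sets the 3 KO188 arrays lay wholly on 1 side of the 3 WT arrays, and the nearest arrays of the groups stood at least 0.96 apart. The rule itself favours this, because it asks for group means at least 1 apart. No SD within a group exceeded 0.32 in these probe sets, so the separation is no added result. Lack of overlap by itself was common here: among probe sets naming several genes, 14.5% had all KO188 arrays above all WT arrays and 32.3% had them below. All 37 WT means were above the receptor guide of 6.72, and so were all KO188 means but that of the proliferins. The probe set just inside the threshold read Psme2b and Psme2 (1.003), and the one just outside read the class I genes H2-D1, LOC547349 and H2-K1 (0.994). On the lower side the nearest probe set outside read Tdg-ps2 and Tdg (-0.784), well short of the 3 that were inside.

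**Figure D2:**
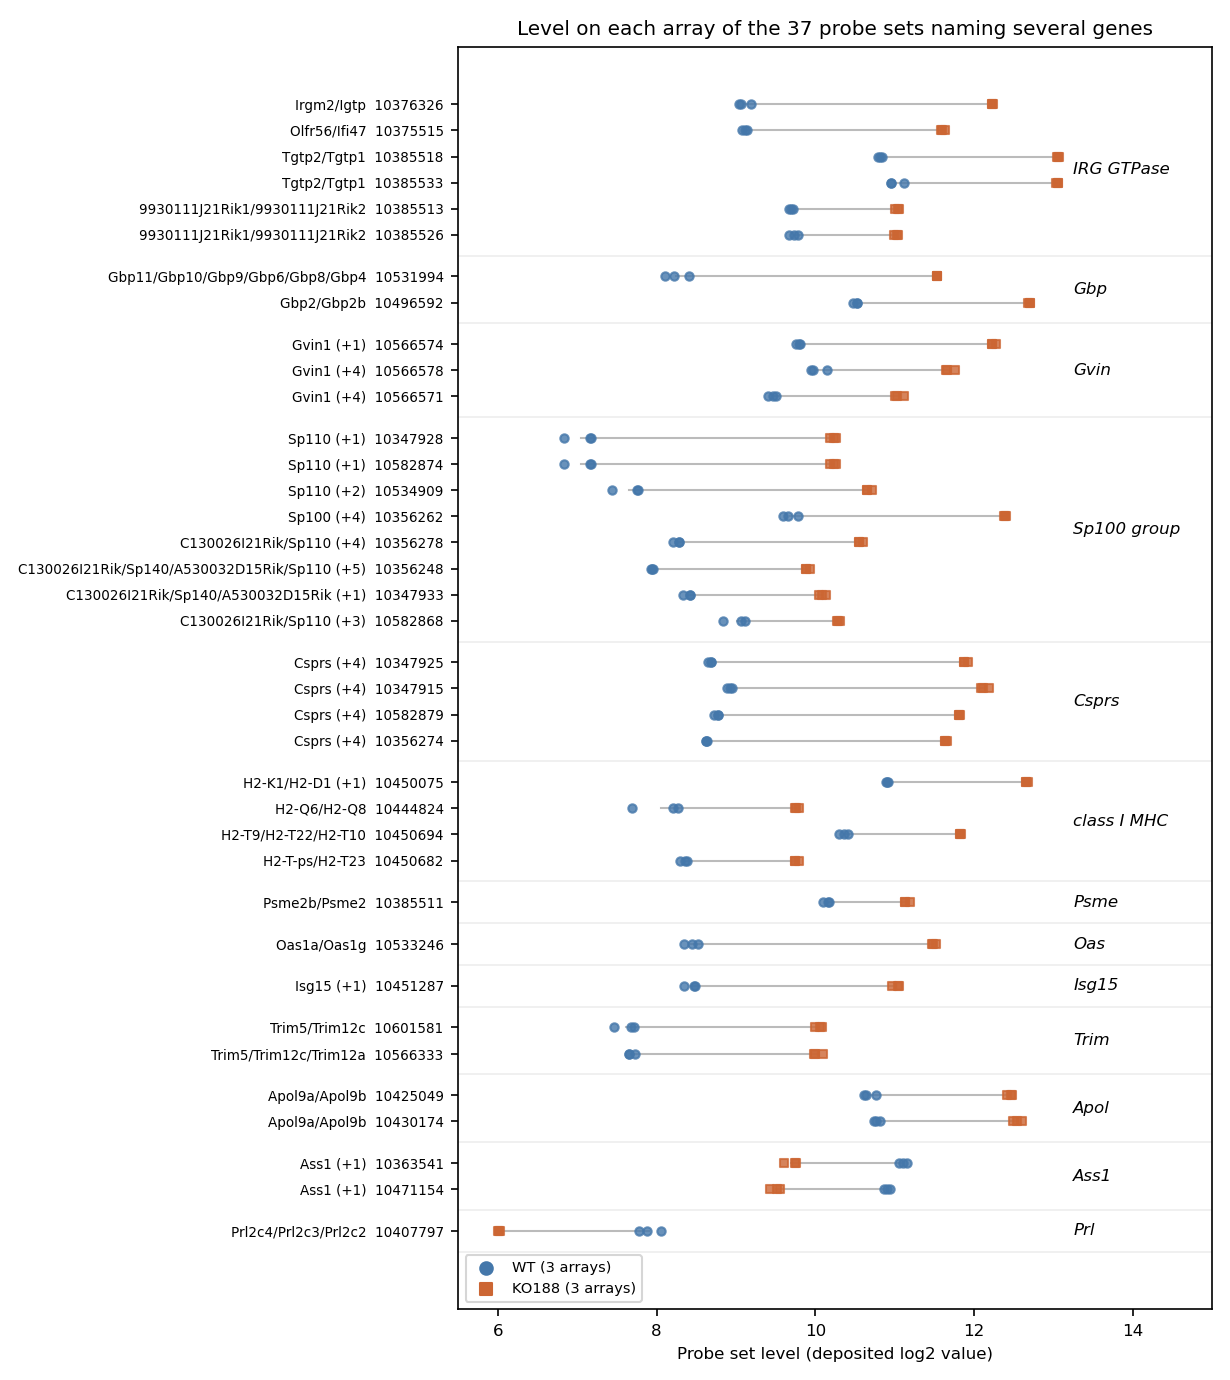
Deposited log2 level on each array (horizontal axis) of the 37 probe sets, grouped by gene family, with circles for the 3 WT arrays, squares for the 3 KO188 arrays and a line joining the group means. Numbers in brackets count further predicted genes that the probe set names; in each row the KO188 squares and the WT circles do not overlap, and only the Ass1 and Prl rows run to the left.

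The immunity-related GTPases (IRG) are interferon-induced proteins that gather on the vacuoles of intracellular microbes or regulate those that do. They are read by 6 of the probe sets. The probe set of Irgm2 and Igtp, both regulators of the family, read 9.04, 9.19 and 9.06 on the WT arrays and 12.24, 12.23 and 12.23 on the KO188 arrays. All KO188 arrays were thus about 3 log2 units above all WT arrays, a difference of 3.14 (8.80-fold) with SDs of 0.079 and 0.0014 (n = 3 each). No probe set of the annotation reads Irgm2 or Igtp alone, so the signal cannot be divided between them.

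Tgtp1 and Tgtp2, a pair of effector GTPase genes, share 2 probe sets that match the same transcripts. Probe set 10385518 went from 10.81 ± 0.026 (SD, n = 3) in WT to 13.06 ± 0.014 in KO188, and probe set 10385533 from 11.02 ± 0.092 to 13.05 ± 0.015. Their differences of 2.25 and 2.03 were 0.21 apart, although both are annotated with the same 7 accessions. Ifi47, a further GTPase gene, is read together with the olfactory receptor gene Olfr56, which shares no function with it, at 9.12 ± 0.031 in WT and 11.61 ± 0.029 in KO188. The tandem GTPase genes 9930111J21Rik1 and 9930111J21Rik2 had the smallest differences of the group on their 2 shared probe sets, 1.34 (WT 9.70, KO188 11.04) and 1.29 (WT 9.73, KO188 11.02).

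In the RefSeq gene table of assembly GRCm38.p6, these genes form a run in the order Psme2b, 9930111J21Rik1, Tgtp1, 9930111J21Rik2, Tgtp2, Ifi47 and Olfr56. The run holds 13 annotated genes, of which 7 are named by these probe sets, and the table has Psme2b overlapping 9930111J21Rik1. Of the 37 probe sets 6 name genes of this run, and the other 6 annotated genes in it are named by none of them. Igtp and Irgm2 are direct neighbours elsewhere on the same chromosome.

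The promoters of Igtp, Irgm2, Tgtp1 and Tgtp2 show how some of the IRG copies resemble each other. The 120 bases before the RefSeq start (GRCm38.p6, 5′ to 3′ on the gene's strand) are printed because the motif arrangement in them recurs, with the GAS core TTCNNNGAA and the ISRE core GAAANNGAAA in capitals. The windows are chr11:58199436-58199555 (plus strand) for Igtp, chr11:58214857-58214976 (plus) for Irgm2, chr11:48992247-48992366 (minus) for Tgtp1 and chr11:49064213-49064332 (minus) for Tgtp2.
Igtp: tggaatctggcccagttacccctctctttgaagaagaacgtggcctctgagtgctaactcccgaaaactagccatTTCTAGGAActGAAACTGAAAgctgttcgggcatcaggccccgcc
Irgm2: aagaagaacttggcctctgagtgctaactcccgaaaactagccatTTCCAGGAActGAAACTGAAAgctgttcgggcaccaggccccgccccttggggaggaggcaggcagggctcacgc
Tgtp1: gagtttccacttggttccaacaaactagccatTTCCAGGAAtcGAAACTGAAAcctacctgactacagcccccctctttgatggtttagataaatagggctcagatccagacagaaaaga
Tgtp2: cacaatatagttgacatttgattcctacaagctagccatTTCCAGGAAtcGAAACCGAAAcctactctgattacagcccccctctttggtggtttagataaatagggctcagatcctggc

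In these 4 windows a GAS core is followed after 2 bases by an ISRE core on the gene's strand. Other IRG genes read here lack this arrangement: 9930111J21Rik1 holds only an ISRE core, at 27 to 36 after the start. The windows of 9930111J21Rik2 and Ifi47 hold neither core. However, the windows of 9930111J21Rik1 and 9930111J21Rik2 were 100.0% identical over the 283 positions that aligned. The core of 9930111J21Rik1 lies near the end of its window, which stops 50 bases after the start. Its absence from the other window therefore does not show that 9930111J21Rik2 lacks it. The GAS core begins at -45 in Igtp, -75 in Irgm2, -88 in Tgtp1 and -81 in Tgtp2, counted from the base before the start as -1. Among 27025 genes with a promoter window of 300 bases (250 before to 50 after the start), 5 (0.0185%) hold this spacing. The fifth is Gm12185, which has a probe set of its own that rose from 6.48 in WT, just under the receptor guide, to 9.17 in KO188 (log2 change 2.69, limma adjusted p = 6.9e-05). This spacing was noticed in the sequences after the genes had been chosen. The windows of Igtp and Irgm2 were 90.4% identical over 270 aligned positions, and those of Tgtp1 and Tgtp2 69.1% over 317, gaps included.

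Across all promoters the ISRE core, searched on both strands, occurs in 1079 of 27025 genes (3.99%) and the GAS core, whose letters read the same on both strands, in 2582 (9.55%). Of the 59 genes named by the higher probe sets 33 have a window, and 18 of these (54.5%) hold an ISRE core and 5 (15.2%) a GAS core. The windows of Ifi47, Psme2, Psme2b, H2-K1, H2-D1, Sp100, Sp110 and Sp140 do not contain these exact letters. Both lower groups have a window for 1 gene each, Ass1 and Prl2c3. Neither holds an ISRE core, but Prl2c3 holds a GAS core, at 26 to 34 after the start. The motif search and the choice of motifs were made with the higher genes known to be interferon genes, so these shares describe the windows and are no test.

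**Figure D3:**
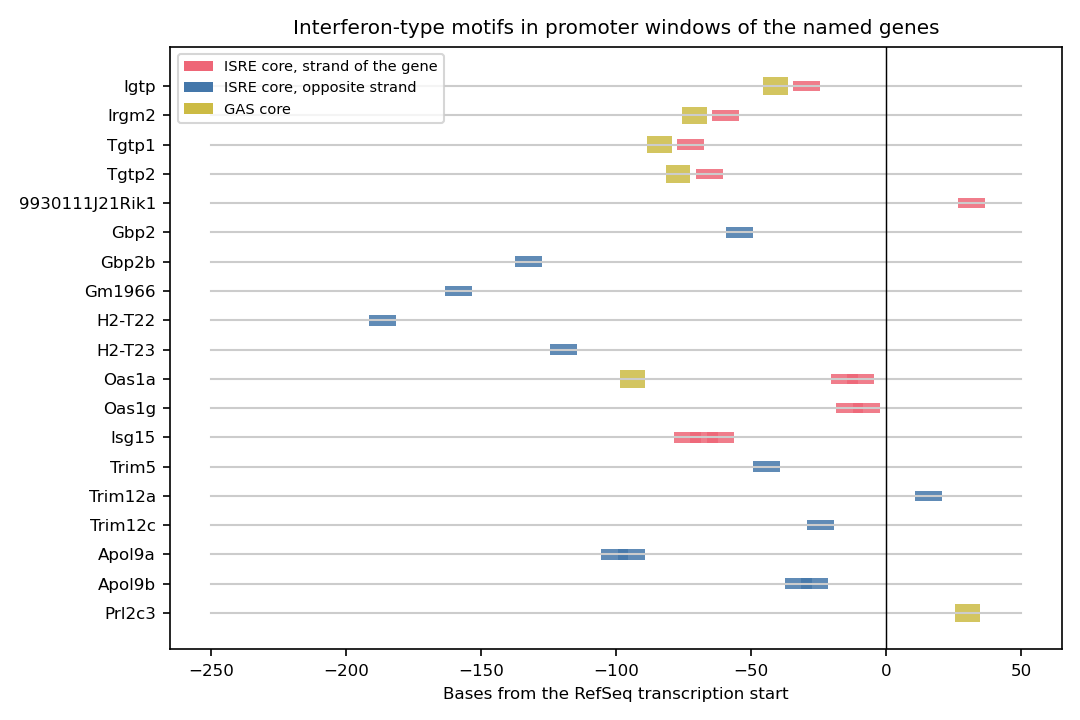
Position of ISRE cores (narrow bars, coloured by strand) and GAS cores (tall bars) in the RefSeq promoter window of each named gene that holds any, in bases from the transcription start. In Igtp, Irgm2, Tgtp1 and Tgtp2 a GAS core stands 2 bases before an ISRE core; 1 window is drawn for each of 19 genes, and the lowest, Prl2c3, is the only one whose probe set was lower in KO188.

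Single-gene probe sets of the other genes grouped by symbol as IRG, which the rule did not use, moved the same way. They were tested in limma's fit over all 35556 probe sets. In that fit 9.44% of all probe sets were called higher and 12.2% lower at an adjusted p of 0.05, and 11.3% and 14.9% of those that name 1 gene. The 4 measured all rose: Gm12250 from 7.40 to 12.02 (log2 change 4.62, SE 0.061, limma adjusted p = 1.1e-06), Gm4951 by 3.76, Iigp1 by 3.69 and Irgm1, a regulator already high in WT at 11.70, by 1.43. These share sequence with the genes above and were read on the same arrays, so they are not independent evidence.

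Guanylate-binding proteins (GBP) are interferon-induced GTPases that assemble on microbes and their vacuoles. The shared probe set with the largest difference of all names Gbp4, Gbp6, Gbp8, Gbp9, Gbp10 and Gbp11, neighbours in 1 cluster. It read 8.41, 8.22 and 8.11 in WT and 11.53 on each of the KO188 arrays, a difference of 3.28 (9.71-fold). The 3 KO188 values are equal to the last deposited digit, so their SD of 0 is no measure of spread. Single-gene probe sets of 4 of these genes rose by different amounts: Gbp4 by 3.75 (limma adjusted p = 7.7e-05), Gbp9 by 2.87, Gbp11, annotated as a transcribed pseudogene, by 2.02 and Gbp8 by 1.28. The WT level of Gbp4 (6.53) was below the receptor guide. Those of Gbp11 (7.01) and Gbp8 (7.04) were not far above it, so the changes of these genes are inexact.

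Gbp2 and its neighbour Gbp2b share a probe set at 10.51 ± 0.033 (SD, n = 3) in WT and 12.70 ± 0.014 in KO188, a difference of 2.19. On single arrays it read 10.47, 10.53 and 10.53 in WT and 12.71, 12.71 and 12.68 in KO188. The probe set for Gbp2b alone was near the receptor guide, at 6.63 in WT and 7.01 in KO188, and did not pass (log2 change 0.38, limma adjusted p = 0.098). It passed without WT replicate 3 (0.52, limma adjusted p = 0.0039). The promoter windows of this pair were no more than 52.1% identical. Gbp2, whose ISRE core lies on the opposite strand, is shown at chr3:142620543-142620662 (GRCm38.p6, plus strand).
Gbp2: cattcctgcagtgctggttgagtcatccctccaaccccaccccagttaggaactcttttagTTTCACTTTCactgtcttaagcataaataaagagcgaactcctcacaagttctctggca

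The other GBP genes with a probe set of their own, Gbp3 (3.02), Gbp5 (3.42) and Gbp7 (2.86), all rose (limma adjusted p = 7.0e-07 to 0.00011), and Gbp5 started below the receptor guide at 6.21. The very large interferon-inducible GTPases are encoded by Gvin1 and its copies. The probe set naming Gvin1 and Gm4070 only read 9.76, 9.81 and 9.80 in WT and 12.28, 12.23 and 12.23 in KO188 (difference 2.46). The 2 probe sets that also name Gm1966, Gm8979 and Gm8989 differed by less, 1.67 (WT 10.02, KO188 11.69) and 1.59 (WT 9.46, KO188 11.05). Gm1966 alone went from 6.77 to 7.58 (log2 change 0.81, SE 0.068, limma adjusted p = 0.0010). Its WT level was close to the receptor guide, so the size of this change is inexact. The readings of this cluster thus differed between probe sets that share gene names.

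Sp100, Sp110 and Sp140 encode chromatin readers of nuclear bodies, and in the mouse they sit beside a repeated block of related genes. The Csprs probe sets are counted with them. This neighbourhood supplied 12 of the 37 probe sets, more than any other. The annotated stretch from A530032D15Rik to Sp100 holds 14 genes in the table, 8 of them named by these probe sets. Csprs itself is not listed in this stretch, but its probe sets also name Gm7592, Gm7609 and Gm2666, which are. Predicted genes make up much of what these probe sets name: the broadest names 9 symbols, 5 of them predicted.

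The Csprs probe sets name it with Gm7592, Gm7609, Gm2666 and LOC100041903, and all 4 share 9 accessions. Probe set 10347925 read 8.69, 8.65 and 8.69 in WT and 11.87, 11.93 and 11.87 in KO188, a difference of 3.21. Probe set 10347915 read 8.93, 8.89 and 8.95 in WT and 12.09, 12.19 and 12.11 in KO188, also a difference of 3.21. The remaining pair were close by: 10582879 read 8.77, 8.72 and 8.77 against 11.81, 11.83 and 11.81 (3.06), and 10356274 read 8.62, 8.63 and 8.62 against 11.63, 11.66 and 11.63 (3.02). The 4 readings thus lay within 0.20 of each other, each with arrays of a group far closer together than the groups.

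Sp100 is read on a probe set with Gm7592, Gm7609, LOC101055663 and LOC671917, at 9.59, 9.66 and 9.78 in WT and 12.39, 12.40 and 12.38 in KO188 (difference 2.71, 6.55-fold). The separate probe set for Sp100 alone rose by nearly the same amount, from 9.34 ± 0.044 to 12.06 ± 0.0044 (SD, n = 3; log2 change 2.72, SE 0.031, limma adjusted p = 8.9e-07). The promoter windows of Sp100 and Gm7609 were 98.3% identical.

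Sp110 has no probe set of its own in the annotation, and its 6 shared ones differed widely. A pair of them, 10347928 and 10582874, hold identical values on all 6 arrays and count as a single reading: 7.16, 7.17 and 6.83 in WT and 10.26, 10.18 and 10.24 in KO188 (difference 3.18). WT replicate 3 was the lowest array in that reading and also in the probe set naming Sp110, Gm15753 and LOC102638047, at 7.76, 7.75 and 7.44 in WT and 10.71, 10.65 and 10.65 in KO188 (difference 3.02). With more symbols the differences were 2.31 (6 symbols, WT 8.26 to KO188 10.57), 1.96 (9 symbols, 7.94 to 9.90) and 1.29 (5 symbols, 9.01 to 10.29). The spread of 1.89 between the extremes exceeds every array-to-array SD in these probe sets, of which the highest was 0.19.

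The probe set of Sp140, A530032D15Rik, C130026I21Rik and LOC101055672 went from 8.39 ± 0.049 to 10.09 ± 0.037 (difference 1.70). Sp140 alone rose by 1.95 (SE 0.079, limma adjusted p = 7.4e-05). A530032D15Rik has 2 probe sets of its own that disagree: 10356271 rose by 1.37 (limma adjusted p = 8.8e-05), while 10356267 was 8.54 in WT and 8.66 in KO188 and did not pass (limma adjusted p = 0.21). A further probe set naming Sp140 and A530032D15Rik, outside the threshold, differed by 0.48 (WT 9.59, KO188 10.08).

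Class I MHC heavy chains present peptides on the cell surface, with H2-K1 and H2-D1 as classical molecules and the H2-Q and H2-T genes as nonclassical ones. The probe set naming H2-K1, LOC547349 and H2-D1 read 10.89, 10.92 and 10.90 in WT and 12.68, 12.66 and 12.66 in KO188, a difference of 1.77 (3.40-fold). A second probe set with the same 3 symbols read 12.02, 11.98 and 11.96 in WT and 12.97, 13.00 and 12.97 in KO188, a difference of 0.99 that fell just short of the threshold. These 2 readings of the same genes differ by far more than the arrays of a group do.

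H2-Q6 and H2-Q8 went from 8.06 ± 0.32 to 9.76 ± 0.021 (difference 1.71), where WT replicate 2 at 7.69 stood apart from 8.27 and 8.21. Without that array the difference was 1.52. H2-T9, H2-T22 and H2-T10 went from 10.36 ± 0.053 to 11.82 ± 0.014 (1.47), and H2-T10 alone rose by 1.53 (SE 0.11, limma adjusted p = 0.00067). H2-T23, which encodes the ligand of an inhibitory receptor of natural killer cells, is read with H2-T-ps, at 8.34 ± 0.049 and 9.77 ± 0.029 (1.42). Of the 18 other class I genes with a probe set of their own, 7 rose, 0 fell (11 had no call from limma) and the median difference was 0.08. The 4 with the lowest p were H2-Q4 (2.74, limma adjusted p = 8.9e-07), H2-K2 (1.59), H2-Q5 (1.45) and H2-M3 (1.02). The WT level of H2-K2 (6.75) was close to the receptor guide, so its change is inexact.

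Peptides for class I come from the proteasome. Psme2 encodes the beta subunit of its interferon-induced PA28 cap, and Psme2b is a copy of it inside the IRG run. Their shared probe set read 10.14 ± 0.035 in WT and 11.15 ± 0.035 in KO188 (difference 1.003), which was 0.96 and below the threshold when each array was centred on its median. Psme2 alone rose by 0.81 (limma adjusted p = 0.00036) and its partner subunit gene Psme1 by 0.87 (limma adjusted p = 6.4e-05). Psme3, which encodes a nuclear relative, was 12.48 and 12.45 and did not pass (limma adjusted p = 0.49), and Psme4 fell by 0.39 (limma adjusted p = 0.00041).

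Oas1 enzymes sense double-stranded RNA and make the messenger that activates the nuclease RNase L. The probe set of Oas1a and Oas1g read 8.34, 8.45 and 8.52 in WT and 11.47, 11.52 and 11.48 in KO188, a difference of 3.05 (8.30-fold). Oas1a alone rose by 2.80 (SE 0.13, limma adjusted p = 0.00011). Of the 10 other Oas and Oasl genes 8 rose, 0 fell and 2 had no call from limma, led by Oas2 (4.11), Oas3 (3.51), Oas1b (3.09) and Oasl1 (2.52). Another 4 of the 10 were below the receptor guide in both groups: Oas1f (0.31) and Oas1d (0.30), which passed, and Oas1h (0.14) and Oas1e (0.01), which did not.

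Isg15 encodes a ubiquitin-like protein that is attached to other proteins during antiviral responses. It shares a probe set with the pseudogene Gm9706, which read 8.49, 8.47 and 8.34 in WT and 11.06, 11.04 and 10.97 in KO188 (difference 2.59, 6.03-fold). The promoters of Isg15 (chr4:156200819-156200938, minus strand), Oas1a (chr5:120907526-120907645, minus) and Oas1g (chr5:120887614-120887733, minus) are printed because their ISRE cores overlap in tandem near the start (capitals, GRCm38.p6). Oas1a also holds a GAS core farther upstream that Oas1g lacks.
Isg15: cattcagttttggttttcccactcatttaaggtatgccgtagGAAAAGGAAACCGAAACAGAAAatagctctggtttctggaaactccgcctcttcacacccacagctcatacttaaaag
Oas1a: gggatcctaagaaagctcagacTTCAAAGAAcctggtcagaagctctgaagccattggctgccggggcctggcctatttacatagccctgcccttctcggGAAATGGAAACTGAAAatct
Oas1g: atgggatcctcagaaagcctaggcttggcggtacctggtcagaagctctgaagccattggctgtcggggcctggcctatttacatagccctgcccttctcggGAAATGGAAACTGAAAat

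Windows with 2 or more ISRE cores are rare, at 72 of 27025 genes (0.266%), and 5 of the 33 genes of the higher probe sets hold them: Isg15, Oas1a, Oas1g, Apol9a and Apol9b. Apol9a and Apol9b encode apolipoprotein L proteins, interferon-induced lipid-binding proteins. They are read by 2 probe sets with 7 shared accessions. Probe set 10425049 read 10.64, 10.62 and 10.76 in WT and 12.48, 12.42 and 12.47 in KO188 (difference 1.78), and 10430174 gave a mean of 10.78 in WT and 12.55 in KO188 (1.77). The best-matching promoter windows of the 2 genes were 100.0% identical over 281 aligned positions, so the promoter stretch, like the transcripts, does not separate them. The windows shown are chr15:77411035-77411154 (minus) for Apol9a and chr15:77728952-77729071 (plus) for Apol9b, in GRCm38.p6, each before 1 of 2 RefSeq starts of the gene.
Apol9a: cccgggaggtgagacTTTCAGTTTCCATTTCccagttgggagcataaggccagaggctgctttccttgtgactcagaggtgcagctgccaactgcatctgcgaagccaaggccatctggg
Apol9b: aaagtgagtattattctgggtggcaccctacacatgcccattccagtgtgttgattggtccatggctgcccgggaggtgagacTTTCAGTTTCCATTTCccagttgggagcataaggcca

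Of the 7 other Apol genes measured, Apol6 rose by 2.06 (limma adjusted p = 4.4e-06), Apol10b by 0.62 and Apol7a, which was below the receptor guide in WT, by 0.58, and 4 had no call. Trim5, Trim12a and Trim12c are the mouse relatives of the restriction factor TRIM5alpha, which binds retroviral capsids. The probe set of Trim5 and Trim12c read 7.46, 7.72 and 7.68 in WT and 10.06, 10.08 and 10.00 in KO188 (difference 2.42), and the one that adds Trim12a gave 7.68 ± 0.044 and 10.03 ± 0.062 (2.35). Trim12a alone rose by 2.73 (limma adjusted p = 9.9e-06) and Trim12c alone by 2.51 (limma adjusted p = 0.00039). The WT level of Trim12c on that probe set (6.95) was not far above the receptor guide, so its change is inexact. The promoter windows of Trim5 and Trim12a were 100.0% identical over 241 aligned positions. Of the 57 other Trim genes measured 15 rose, 6 fell and 36 had no call, with a median of 0.02. Trim30a (2.24), Trim25 (1.74), Trim21 (2.37) and Trim34a (1.70) had the lowest p (limma adjusted p = 3.9e-06 to 1.2e-05).

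**Figure D4:**
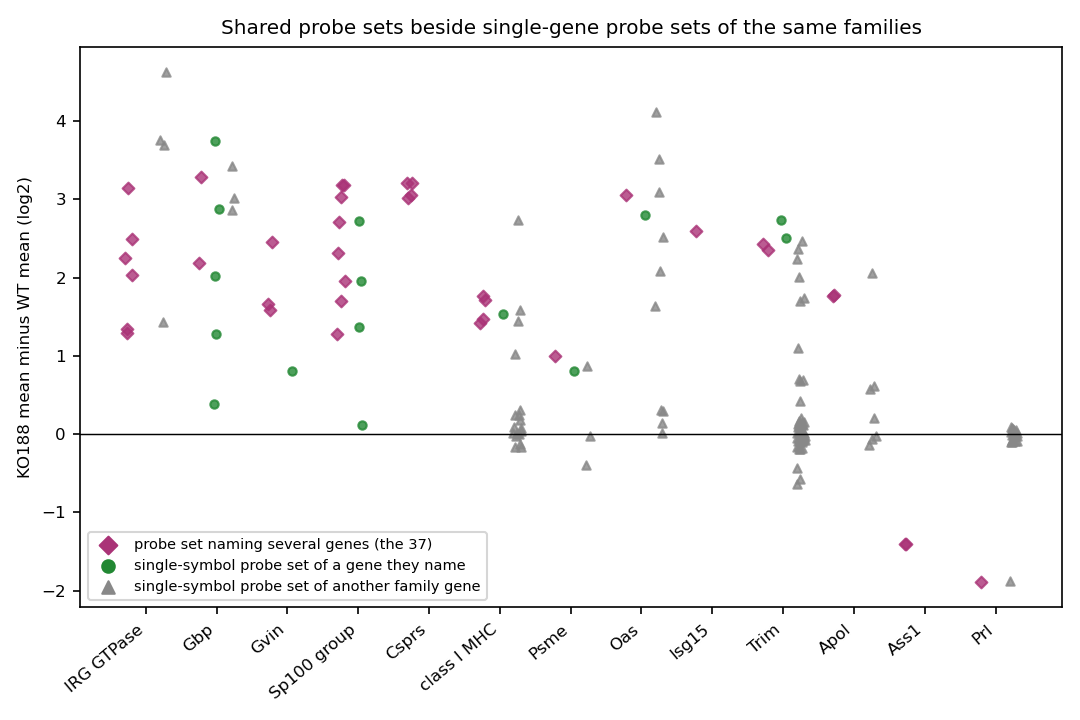
KO188 mean minus WT mean (log2) by gene family for the 37 shared probe sets (diamonds), for single-symbol probe sets of genes they name (circles) and for single-symbol probe sets of other genes of the family (triangles). In the Trim, class I MHC, Apol and Prl families many triangles lie near 0. The Oas triangles run from 0.01 to 4.11, and all 4 IRG and all 3 Gbp triangles lie above 1.

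Over all families, 15 single-symbol probe sets read 14 of the genes that the 37 name: 13 rose, 0 fell and 2, Gbp2b and 1 of A530032D15Rik, had no call from limma. Their differences ran from 0.12 to 3.75 with a median of 1.95. Another 121 genes of the same families had a probe set of their own, of which 41 rose, 8 fell and 72 had no call (median 0.04, against -0.01 over all probe sets that name 1 gene). A list of 46 well-known interferon genes puts the shared probe sets in context. It was drawn up with earlier results of these arrays known and is no independent evidence. All 39 of its genes with a single-symbol probe set rose, by 0.76 to 4.82 (median 2.48). Of the 7 without, Isg15, Gbp2, Igtp, Irgm2 and Ifi47 have no probe set of their own in the annotation and are read by the shared probe sets described here.

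The 3 lower probe sets read different biology. Ass1 encodes argininosuccinate synthase, which joins citrulline and aspartate on the way to arginine, and Gm5424 is a transcribed pseudogene copy of it. Probe set 10363541 read 11.16, 11.11 and 11.06 in WT and 9.75, 9.76 and 9.61 in KO188, and 10471154 read 10.94, 10.90 and 10.86 in WT and 9.52, 9.55 and 9.43 in KO188. Both gave a difference of -1.40 (2.64-fold lower in KO188). In both probe sets the KO188 arrays were all lower than the WT arrays, and KO188 replicate 3 was the lowest. The pair matches the same 5 accessions, so it is not 2 independent readings, and the annotation gives neither gene a probe set of its own.

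The proliferins are growth-factor-like hormones of the prolactin family, known from the placenta and from growing fibroblasts. The probe set of Prl2c2, Prl2c3 and Prl2c4 read 7.88, 8.05 and 7.78 in WT and 6.02, 6.00 and 6.03 in KO188, a difference of -1.89 (3.70-fold). All KO188 arrays lay below the receptor guide of 6.72, so the size of this difference is inexact. The further proliferin gene Prl2c5, which the rule did not use, fell on its own probe set, from 9.36 ± 0.018 to 7.49 ± 0.17 (SD, n = 3; log2 change -1.87, SE 0.088, limma adjusted p = 0.00013). The remaining 18 prolactin-family genes had no call, with levels below the guide and differences within 0.10 of 0.

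Among the 37, arrays of a group were close together, with a median SD of 0.0492 in WT and 0.0290 in KO188, against 0.0494 and 0.0605 over all 35556 probe sets. The WT spread was the larger in 25 of the 37 (67.6%), against 42.6% of all probe sets. Equal values bear on this: 7 of the 37 had at least 2 exactly equal KO188 arrays (18.9%, against 12.2% of all probe sets) and none had equal WT arrays (12.9% of all). No WT array was low throughout: among the 34 higher probe sets, WT replicate 1 was lowest in 13, replicate 2 in 8 and replicate 3 in 13.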

How the data were processed

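The authors deposited log2 values, 1 per probe set and array, for 6 arrays. Per the submitters' processing notes the tools were RMA, Affymetrix Expression Console and Partek; their roles are unstated. RMA compresses dim values, so changes of dim genes are understated. The array number limits the precision. The sources used here do not give the authors' genome build or probe annotation. Probe sets were named through GEO's platform annotation, which lists 23410 of 35556; 62 of the 64 symbols matched a RefSeq gene table (GRCm38.p6) by gene identifier. Groups come from the sample titles. Differences are KO188 minus WT means. Probe sets outside the 37 were tested with limma 3.58.1 in R 4.3.3 (lmFit, eBayes without trend, Benjamini-Hochberg over all 35556, threshold 0.05), checked on simulated arrays. Promoters are RefSeq's, for 35 of the 64 genes; windows were aligned with Biopython 1.88 (match 1, mismatch -1, gap opening -3, extension -0.5, free ends) and identity is given over at least 200 aligned positions. Figures used matplotlib 3.10.9. Members, families, lists and tests were chosen with earlier results of these data known. Named genes: all 37 with group means; array values for the 12 largest differences upward, all 3 downward and the largest of each family with several; up to 4 relatives per family by lowest p, and all single-symbol probe sets of named genes. The GAS spacing and Gm12185 were chosen after seeing the values.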

Additional observations from a re-analysis of the deposited data

How the results depend on the processing

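The number of probe sets naming several genes past the threshold was 33 higher with median centring and 35 with quantile normalization, 38 at a threshold of 0.8 and 33 at 1.2, and 33 to 35 with 1 array left out. The lower 3 remained 3 except when dim probe sets were left out (2). The differences of the 37 moved by -0.19 to 0.11 over the alternatives, and none changed sign. The 39 interferon-list calls were 39 under every alternative. Over all probe sets limma called 3355 higher and 4328 lower; with the replicate number as a block it called 2212 and 2411. The block costs degrees of freedom. Deviations of same-numbered arrays of the groups correlated at 0.02, -0.02 and 0.02, and 2 of 3 WT arrays correlated best with their own number. Whether the replicate numbers pair the samples was not tested. Without 1 array the calls ran from 2321 to 2785 higher and from 2796 to 3867 lower, with the lowest for both without WT replicate 1. Median centring moved the median difference from -0.002 to -0.046 and the share of calls that are higher from 43.7% to 31.2%. Psme3 changed sign with quantile normalization, to a difference of 0.00 (adjusted p = 0.94). Gbp2b was called without WT replicate 3, and Prl8a2 with median centring (-0.13, adjusted p = 0.042).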
